A study of Mus musculus with 4 samples.

Results

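Sin3 complexes silence genes by bringing histone deacetylases to chromatin. The scaffold proteins Sin3a and Sin3b hold the deacetylases, while a second layer of accessory subunits reads histone marks, bridges the parts of the complex or adds further enzyme activities. The genes described here are 9 of that second layer. Arid4a, Arid4b, Ing2 and Morf4l1 encode chromatin-reading and targeting subunits, Brms1, Brms1l and Suds3 encode the related bridging subunits of the Sds3 family, and Kdm5a and Ogt encode enzyme partners. The rule that picks them uses their names and roles and requires library values, so that 9 of 9 have them was set in advance. The deposited table holds 9244 genes with library values.

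RNA was sequenced from long-term haematopoietic stem cells, the rare bone marrow cells that renew themselves and give rise to all blood lineages. The cells came from C57BL/6 mice of 8 to 12 weeks and were sorted as LSK cells (lineage-negative, Sca-1-positive, Kit-positive) without CD34 and Flk2. There were 2 libraries from Sin3B KO mice and 2 from WT mice, and the purpose was to find genes under the control of Sin3B. The labels name neither the driver of the deletion nor its extent, and they do not say whether the libraries of a genotype are separate mice or pools. RNA of both Xist and the Y-linked Ddx3y was read in each library (values below), and whether cells of both sexes were pooled was not tested. Either way p-values measure library spread alone, and that spread may be technical. In bulk libraries such as these, fewer cells that express a gene and less RNA of it per cell cannot be told apart. Levels are the authors' normalised read counts, whose values within a library are whole multiples of 1 step. Means are given ± SD with n = 2 libraries per genotype throughout.

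Taking that step as 1 read, which the table cannot show directly since it lists no low values, the libraries held between 9950979 and 13700630 reads in the listed genes. Sin3b, the targeted gene, was at 755 and 647 in the Sin3B KO libraries, against 1522 and 1825 in the WT libraries, so its RNA was lower but still read in the KO. Its log2 fold change was -1.25 (SE 0.22), and in the main test it did not pass (adjusted p = 0.548, limma with Benjamini-Hochberg adjustment over all genes). The authors' deposited table gives Sin3b -1.03 with an adjusted p of 0.00249. Of the fixed stem cell markers 14 of 14 were read in each library, with summed levels of 64621 and 80642 in Sin3B KO and 71045 and 75486 in WT libraries. The 4 sort gate genes Kit, Ly6a (Sca-1), Cd34 and Flt3 (Flk2) were read in each library too. RNA of Cd34 and Flt3 was therefore present although the sort was without CD34 and Flk2. Being read says little here, since no gene listed has a mean under 120.2. Summed levels of other marker lists differed by library number, and some also by genotype at both numbers. The summed level of 12 myeloid markers was 53177 and 24323 in Sin3B KO 1 and 2 and 77512 and 14718 in WT 1 and 2. That of the 9 immediate early genes, which respond to cell handling, was 6303 and 11659 in Sin3B KO 1 and 2 and 6971 and 21603 in WT 1 and 2. It was thus lower in Sin3B KO at both numbers, and the median log2 difference of these genes between genotypes was -1.01. For erythroid markers that median was 0.80 and for proliferation genes 0.59. At both numbers the sums in Sin3B KO were above those in WT for 8 measured erythroid markers (12081 and 4710 in Sin3B KO 1 and 2, 7205 and 3009 in WT 1 and 2) and for 8 proliferation genes (9902 and 6683 in Sin3B KO 1 and 2, 7625 and 5092 in WT 1 and 2). The same held for 6 measured B-lineage markers (4677 and 2389 in Sin3B KO 1 and 2, 4155 and 2265 in WT 1 and 2) and for the 2 measured T and NK cell markers. No marker gene with values was at 0 apart from the erythroid gene Slc4a1 in WT 2. The part of other cells, of proliferation or of handling in the results below was not tested.

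Each accessory subunit has a textbook role. Ing2 carries a PHD finger that binds trimethylated lysine 4 of histone H3, a mark of active promoters, and Morf4l1 (MRG15) has a chromodomain that binds methylated lysine 36 of the same histone. Arid4a and Arid4b are paralogs with an AT-rich interaction domain, and the human ARID4A protein binds the retinoblastoma protein. Suds3 bridges Sin3 and the deacetylases, and Brms1 and Brms1l are its relatives. Kdm5a removes methyl groups from lysine 4 of histone H3, and Ogt attaches O-linked N-acetylglucosamine to nuclear and cytosolic proteins.

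Promoter sequence from RefSeq (GRCm38.p6) was matched for 6 of the 9 genes, in 7 windows of 300 bases around the start of transcription. Ing2 and Brms1l are shown because their profiles over the 4 libraries were close to each other and both were lower in each Sin3B KO library than in either WT library. Only the part upstream of the start that lies outside annotated exons is printed, 5′ to 3′ on the strand of the gene, and capitals mark the CCAAT box.
Ing2, chr8:47675160-47675390, minus strand: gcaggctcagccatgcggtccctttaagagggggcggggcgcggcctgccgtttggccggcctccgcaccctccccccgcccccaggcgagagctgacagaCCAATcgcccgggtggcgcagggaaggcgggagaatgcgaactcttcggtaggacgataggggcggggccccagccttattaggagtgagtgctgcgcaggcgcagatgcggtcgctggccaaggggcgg
Brms1l, chr12:55836116-55836323, plus strand: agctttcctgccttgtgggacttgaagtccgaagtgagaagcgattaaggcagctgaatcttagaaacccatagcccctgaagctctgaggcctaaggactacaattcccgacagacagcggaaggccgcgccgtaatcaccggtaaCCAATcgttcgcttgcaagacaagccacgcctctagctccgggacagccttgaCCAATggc

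The printed Ing2 stretch of 231 bases was rich in CpG dinucleotides, with 22 of them and a GC content of 70.6%. The printed Brms1l stretch of 208 bases held 12 CpG dinucleotides at a GC content of 54.8%. Over whole windows the genes of this set had between 13 and 34 CpG dinucleotides, against a median of 7 over 32851 windows of all genes. The CCAAT box, searched as CCAAT on both strands, was present in 4 of the 7 windows and in 37.4% of all windows. The E box CACGTG, the site of Myc-Max and Mxd-Max dimers, was in 0 of the 7 windows and in 7.15% of all windows. The E2F-type motif GCGGGAA on either strand was in 0 of 7 and in 4.6% of all, and a palindromic NRF1-type motif in 0 of 7 and in 0.971% of all. As the CCAAT box alone had matches, no motif could overlap another in these windows. These counts describe letters in a window, not binding.

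Between genotypes the accessory subunits differed by less than the test could resolve. Of the 9 genes, 7 had a log2 fold change below 0 in Sin3B KO cells and 2, Kdm5a and Brms1, above 0. The median log2 fold change was -0.33, beside 0.03 over all genes tested, where 4933 genes were above 0 and 4311 below. Without WT 2 the median of the 9 was -0.14. In the main test 0 of the 9 passed in either direction (limma on log2(value + 1), Benjamini-Hochberg adjusted p between 0.562 and 0.754), and 0% of all genes did. At an unadjusted p under 0.05 there were 0 of the 9 genes higher, where 4.97% of all genes were, and 0 lower, where 3.95% were (8.91% in either direction). Both Sin3B KO values lay above both WT values for 2 of the 9 genes, against 24.7% of all genes, and below them for 4, against 19.4% (44.1% of all genes in either direction). By the values of the authors' deposited table, too, 0 of the 9 were under an adjusted p of 0.05, where 0.316% of its genes were. There 0 of the 9 were under an unadjusted p of 0.05 as well, where 9.5% of its genes were. The signs were the same as in the main test for 9 of 9, which is no separate evidence, since both comparisons use the same libraries. The plot of fold changes shows an interval that includes 0 for every one of the 9 genes and excludes it for Sin3b.

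**Figure D1:**
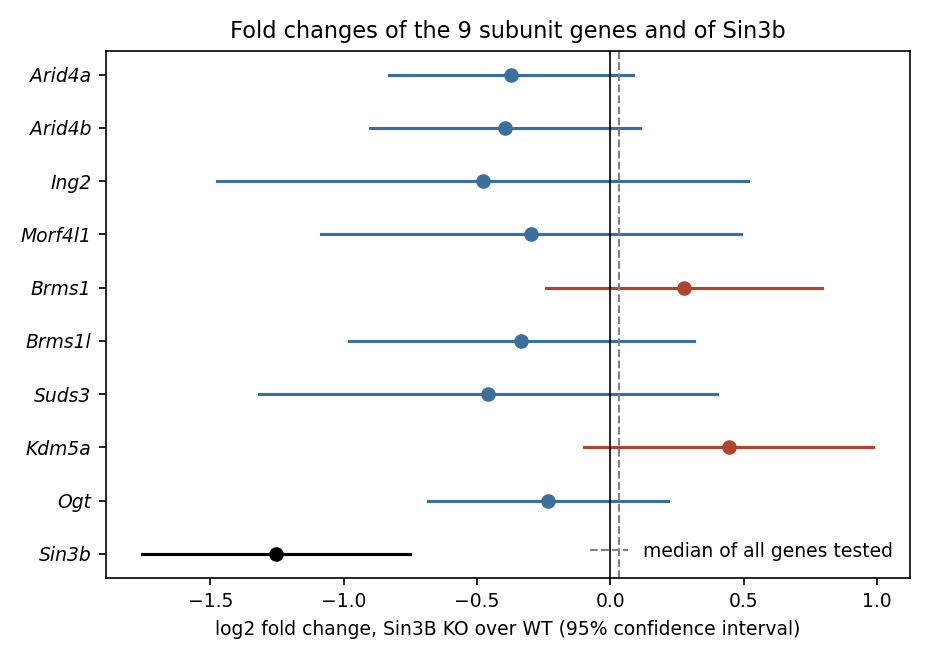
Log2 fold changes of the 9 subunit genes and of Sin3b (x axis, Sin3B KO over WT on log2(value + 1)), as points with 95% confidence intervals from limma. Blue marks values below 0, red values above 0 and black Sin3b, and the dashed line is the median of all genes tested (0.03). The 9 intervals include 0, while that of Sin3b runs from -1.75 to -0.75.

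The paralogs Arid4a and Arid4b were the targeting subunits with the tightest intervals. Arid4a (ENSMUSG00000048118, chromosome 12) was at 1803 and 1491 in Sin3B KO libraries, against 2191 and 2058 in WT libraries. The higher KO value was 12.4% below the lower WT value, the widest gap between genotypes among the 9 genes. Arid4a averaged 1647 ± 221 in Sin3B KO and 2125 ± 94.1 in WT cells, a log2 fold change of -0.37 (SE 0.20) with a 95% interval from -0.83 to 0.08, which spans levels of 0.562 to 1.06 times that of WT. Without Sin3B KO 2 it was -0.24. The authors' deposited table gives -0.31 for it, with an adjusted p of 0.610.

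Arid4b (ENSMUSG00000039219, chromosome 13) was at 964 and 1191 in Sin3B KO libraries, against 1540.3 and 1289 in WT libraries. Here too the genotypes did not overlap, but the KO library that was lower was number 1, whereas for Arid4a it was number 2. Arid4b averaged 1077 ± 160.2 in Sin3B KO and 1415 ± 178 in WT cells (log2 fold change -0.39, SE 0.22, limma 95% interval -0.90 to 0.11). Without Sin3B KO 1 it was -0.24. The authors' deposited table gives -0.32 with an adjusted p of 0.632.

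The ratio of Arid4b to Arid4a within a library does not depend on how libraries are scaled. Per kilobase of principal transcript, Arid4b was at 0.456 and 0.681 of Arid4a in Sin3B KO libraries, against 0.599 and 0.534 in WT libraries. The KO values lay on either side of the WT values. The log2 ratio differed by -0.02 between genotypes (exact permutation test over libraries, two-sided, p = 1, n = 2 per genotype), and libraries in these numbers cannot give a p below 0.333. This is 1 of 4 ratios computed.

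Ing2 (ENSMUSG00000063049, chromosome 8), the reader of trimethylated lysine 4, had the lowest level of the set per transcript length. It was at 149 and 142 in Sin3B KO libraries, against 161 and 256 in WT libraries, so both KO values were below both WT values, the nearer WT value by 7.33%. Taking 1 step of the values as 1 read, these are 155 and 159 reads in Sin3B KO and 141 and 259 reads in WT libraries, for which counting alone gives a relative error of 6.21% to 8.42% per library. Ing2 averaged 145 ± 5.08 in Sin3B KO and 208 ± 67.5 in WT cells. The log2 fold change was -0.48 (SE 0.44), the lowest of the 9 and also the least certain, with a 95% limma interval from -1.47 to 0.52. It was -0.14 without WT 2 and -0.81 without WT 1.

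Morf4l1 (ENSMUSG00000062270, chromosome 9), the reader of methylated lysine 36, was at 395 and 317 in Sin3B KO libraries, against 585 and 324 in WT libraries. WT 2 lay between the KO values and WT 1 lay above all, so the genotypes overlapped. The means were 356 ± 54.8 in Sin3B KO and 455 ± 184 in WT cells (log2 fold change -0.30, SE 0.35), and the log2 fold change was 0.13 without WT 1, -0.14 without Sin3B KO 2, -0.46 without Sin3B KO 1 and -0.72 without WT 2. Of the 9 genes it alone had near-identical copies elsewhere: 11 other annotated genes, 9 of them processed pseudogenes and 1 a transcribed processed pseudogene, match its principal transcript at 90% identity or more over at least 200 bases. The closest, Morf4l1-ps1, matches at 99.8% over 814 bases. How the authors placed reads that fit several sites is not given in the sources used here, so the level of Morf4l1 is uncertain. The noncoding gene Gm26882 on the opposite strand also overlaps 15.4% of its exon bases.

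**Figure D2:**
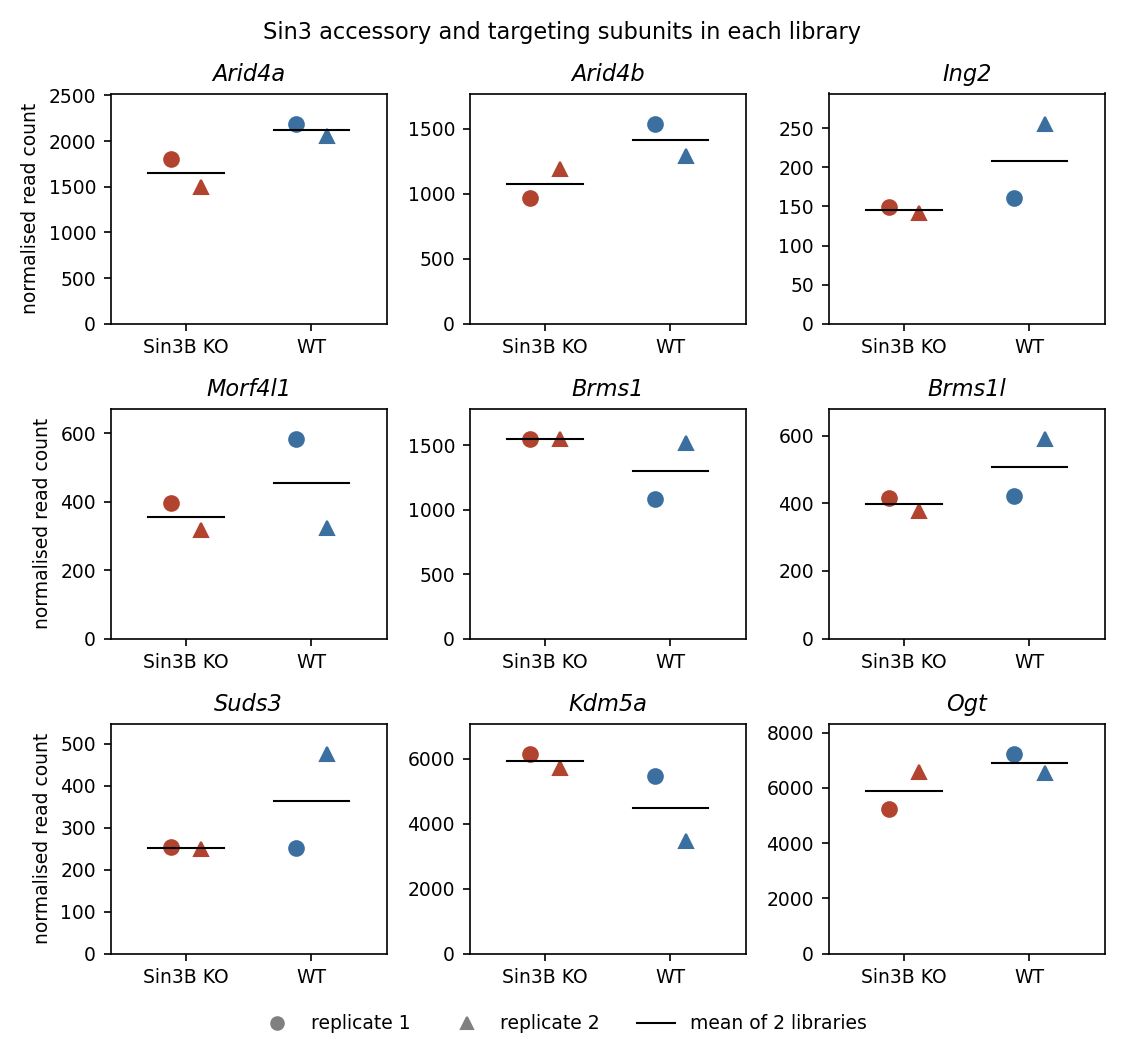
Normalised read counts (y axis, from 0, own scale per gene) of the 9 genes in Sin3B KO (red) and WT (blue) libraries, circles for replicate 1, triangles for replicate 2 and lines for the mean of 2. Arid4a, Arid4b, Ing2 and Brms1l are lower in both KO libraries than in both WT libraries, Brms1 and Kdm5a higher, and Suds3, Ogt and Morf4l1 overlap.

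In the Sds3 family the values of the Sin3B KO libraries were close together and those of the WT libraries far apart. Suds3 (ENSMUSG00000066900, chromosome 5) was at 253.7 and 248.8 in Sin3B KO libraries, against 250.8 and 476.7 in WT libraries. The KO libraries and WT 1 were therefore alike, and WT 2 alone was high. Suds3 averaged 251 ± 3.49 in Sin3B KO and 364 ± 159.7 in WT cells, with a log2 fold change of -0.46 (SE 0.38, limma 95% interval -1.32 to 0.40). It was 0.0024 without WT 2 and -0.92 without WT 1.

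Brms1l (ENSMUSG00000012076, chromosome 12) was at 416 and 377 in Sin3B KO libraries, against 422 and 591 in WT libraries. The genotypes did not overlap, but the gap between Sin3B KO 1 and WT 1 was 1.35%, which is less than the counting error of 4.81% and 5.20% in these libraries, and the difference came mainly with WT 2. The means were 397 ± 27.5 in Sin3B KO and 507 ± 119.9 in WT cells (log2 fold change -0.33, SE 0.28), and the log2 fold change was -0.09 without WT 2 and -0.58 without WT 1.

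Brms1 (ENSMUSG00000080268, chromosome 19) was at 1549 and 1552 in Sin3B KO libraries, against 1082 and 1514 in WT libraries. The KO values lay above both WT values, by 2.31% over WT 2, which is within counting error, and by more over WT 1. Brms1 averaged 1551 ± 1.67 in Sin3B KO and 1298 ± 306 in WT cells, with a log2 fold change of 0.28 (SE 0.23, limma 95% interval -0.24 to 0.80), which was 0.03 without WT 1 and 0.52 without WT 2. In the annotation used for lengths, 79% of its exon bases are shared with a second gene on the same strand, AC124502.3, so reads there cannot be told apart.

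The log2 fold changes of Brms1 and Brms1l had opposite signs, and their ratio did not overlap between genotypes. That follows from the values above, since neither gene overlapped and they differed in opposite directions. The share of other gene pairs without overlap was not computed, and 44.1% of single genes did not overlap. Per kilobase of principal transcript, Brms1l was at 0.143 and 0.129 of Brms1 in Sin3B KO libraries, against 0.207 and 0.208 in WT libraries. The WT libraries differed in the level of both genes and gave nearly the same ratio. The log2 ratio differed by -0.61 between Sin3B KO and WT, and by between -0.68 and -0.54 with any 1 library left out. The exact permutation test gave p = 0.333, the smallest that 2 libraries against 2 allow (two-sided, 0.667 adjusted over the 4 ratios). The ratio of Suds3 to Brms1l was 0.656 and 0.710 in Sin3B KO libraries, against 0.640 and 0.867 in WT libraries, and overlapped (exact permutation p = 1).

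Of the enzymes, Kdm5a (ENSMUSG00000030180, chromosome 6) had the highest log2 fold change of the 9 genes. It was at 6164 and 5715 in Sin3B KO libraries, against 5470.4 and 3485 in WT libraries. Both KO values were above both WT values, by 4.48% over WT 1, while WT 2 stood well below the other 3 libraries. Kdm5a averaged 5939.5 ± 317 in Sin3B KO and 4477 ± 1404 in WT cells. Its log2 fold change was 0.44 (SE 0.24) with a 95% limma interval from -0.10 to 0.99, and it ranged from 0.12 without WT 2 to 0.77 without WT 1. The authors' deposited table gives Kdm5a 0.34 with an adjusted p of 0.591. Its exons overlap those of Ccdc77 on the opposite strand in 1.77% of their bases.

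Ogt (ENSMUSG00000034160, on the X chromosome) was at 5222 and 6577 in Sin3B KO libraries, against 7247 and 6544 in WT libraries. The genotypes overlapped, since Sin3B KO 2 was level with WT 2, and the difference came with the libraries numbered 1. The means were 5899 ± 958 in Sin3B KO and 6895 ± 497 in WT cells. With a log2 fold change of -0.23 (SE 0.20) and a 95% limma interval from -0.68 to 0.22, Ogt had the narrowest interval of the 9 genes, which spans levels of 0.623 to 1.16 times that of WT. Without Sin3B KO 1 it was -0.07 and without Sin3B KO 2 -0.40. Ogt is X-linked, and Xist, the RNA that coats the inactive X chromosome, was at 1713 and 1873 in Sin3B KO libraries, against 4321 and 1221 in WT libraries. The Y-linked Ddx3y was at 1486 and 1417 in Sin3B KO libraries, against 1717 and 1037 in WT libraries. Both were read in each of the 4 libraries, and the part of the sex of the mice in the Ogt values was not tested.

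The log2 fold changes of the 2 enzymes had opposite signs. Per kilobase of principal transcript, Kdm5a was at 0.581 and 0.428 of Ogt in Sin3B KO libraries, against 0.371 and 0.262 in WT libraries. The genotypes did not overlap, as Kdm5a alone did not, and 44.1% of single genes did not either. The share of other gene pairs without overlap was not computed. The log2 ratio differed by 0.68 between Sin3B KO and WT, by 0.42 without WT 2 and by 0.93 without WT 1. The exact permutation test gave p = 0.333, again the smallest possible with 2 libraries against 2, and 0.667 after adjustment over the 4 ratios.

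The differences were carried unevenly by the numbered libraries. Between the libraries numbered 1, the log2 difference of Sin3B KO from WT was -0.68 for Arid4b, -0.57 for Morf4l1, -0.47 for Ogt and 0.52 for Brms1, while between those numbered 2 these genes differed by -0.11, -0.03, 0.01 and 0.04. The reverse held for Suds3, Ing2, Brms1l and Kdm5a, with 0.02, -0.11, -0.02 and 0.17 between the libraries numbered 1 and -0.94, -0.85, -0.65 and 0.71 between those numbered 2. For Arid4a the differences were -0.28 between the libraries numbered 1 and -0.46 between those numbered 2. The sign was the same at both numbers for 7 of the 9 genes, against 63.9% of all genes. What the number stands for is not stated in the labels. The number 2 is that of the titles, and the file headers give these libraries another number in both genotypes. The scatter of the differences by number shows the genes along its axes, with Arid4a off them.

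**Figure D3:**
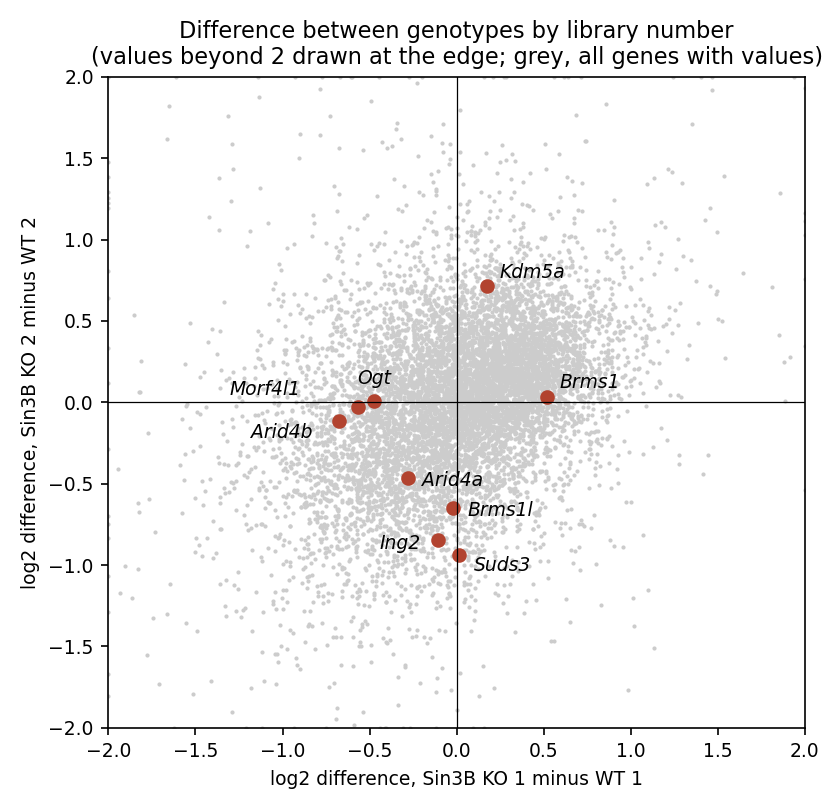
Log2 difference of Sin3B KO from WT between the libraries numbered 1 (x axis) and numbered 2 (y axis), for the 9 subunit genes (red, named) over all 9244 genes with values (grey). Arid4b, Morf4l1, Ogt and Brms1 lie near the horizontal axis and Suds3, Ing2, Brms1l and Kdm5a nearer the vertical one.

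The WT libraries were further apart than the KO libraries, among these genes as over the whole table. The WT libraries differed from each other by more than the KO libraries did for 6 of the 9 genes, against 60.4% of all genes. The median absolute log2 difference of the 9 genes was 0.14 between the Sin3B KO libraries and 0.49 between the WT libraries, beside 0.24 and 0.32 over all genes. WT 2 was above WT 1 by 0.92 on the log2 scale for Suds3, 0.67 for Ing2, 0.49 for Brms1l and 0.48 for Brms1, and it was below WT 1 by 0.85 for Morf4l1 and 0.65 for Kdm5a. WT 2 was also the library with the highest summed level of immediate early genes and the lowest of myeloid markers. Their part in these differences was not tested.

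Levels between genes were compared per kilobase of principal transcript. Ogt, at 1096 ± 178 in Sin3B KO and 1281 ± 92.3 in WT cells, was highest in WT, and Brms1, at 1117 ± 1.20 in Sin3B KO and 935 ± 220.2 in WT cells, had the highest mean in Sin3B KO. Ogt stood above 92.4% of the genes with a length in WT and Brms1 above 88.0%. Arid4a at 330 ± 44.1 in Sin3B KO and 425 ± 18.8 in WT cells and Kdm5a at 543 ± 29.0 in Sin3B KO and 409 ± 128 in WT cells formed the middle, above the WT median of 235 over 9000 genes. Morf4l1, at 189 ± 29.1 in Sin3B KO and 242 ± 97.9 in WT cells, and Arid4b, at 184 ± 27.3 in Sin3B KO and 241 ± 30.3 in WT cells, were close to that median in WT. Brms1l was below it at 152 ± 10.6 in Sin3B KO and 194 ± 46.0 in WT cells, as was Suds3 at 104 ± 1.44 in Sin3B KO and 150.01 ± 65.9 in WT cells. Ing2 was lowest at 51.7 ± 1.81 in Sin3B KO and 74.1 ± 23.99 in WT cells.

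Neighbours in that order overlapped in WT for Arid4a and Kdm5a, Morf4l1 and Arid4b, Arid4b and Brms1l, and Brms1l and Suds3. Ing2 was lowest in each of the 4 libraries, with Suds3 between 1.81 and 2.16 times its level. In Sin3B KO cells Brms1 and Ogt overlapped, and Kdm5a was above Arid4a in both libraries, which it was not on average in WT. With the union of all annotated exons as length, Ogt, Brms1, Arid4a and Kdm5a remained the highest 4 in WT, but Suds3 was lowest in place of Ing2. The WT mean of Morf4l1 was then 46.6 in place of 242, at rank 8 in place of 5, and that of Arid4b 83.4 in place of 241. The libraries were made with a template-switching kit for small inputs, and coverage along transcripts is not known, so levels per length are approximate.

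**Figure D4:**
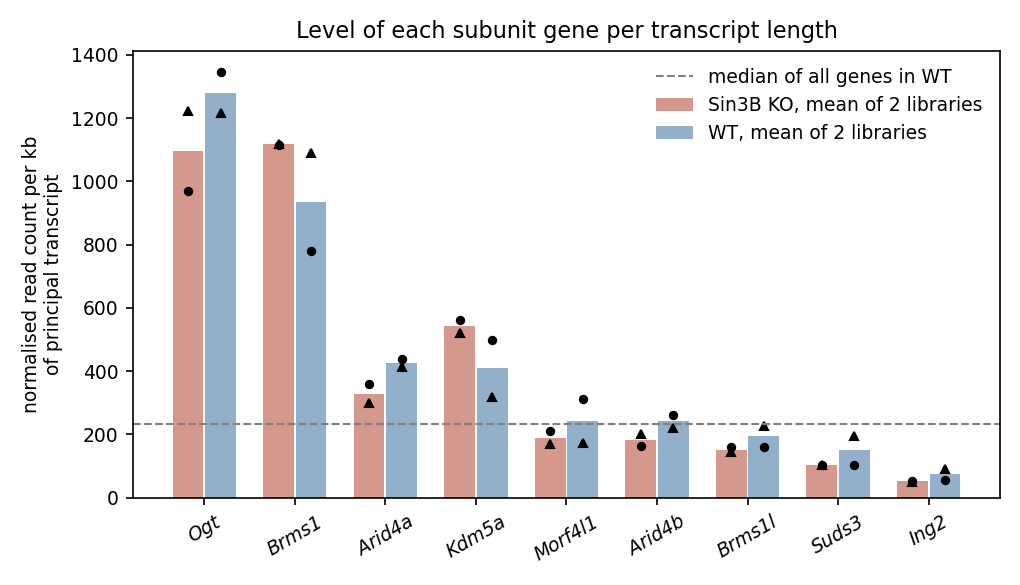
Normalised read count per kilobase of principal transcript (y axis, from 0) of the 9 genes, ordered by the WT mean. Bars are means of 2 libraries in Sin3B KO (red, left) and WT (blue, right), circles replicate 1 and triangles replicate 2, and the dashed line is the WT median of all genes (235). Ogt and Brms1 are the highest and Ing2 the lowest.

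Profiles over the 4 libraries paired some of the genes with each other. As the measure, each profile of log2(value + 1) was centred on its own mean and the root mean square distance over the 4 libraries was taken. Arid4b and Ogt were each other's nearest within the set (distance 0.09), as were Ing2 and Suds3 (0.09), and Brms1l was nearest to Ing2 (0.10). Over the whole table closer profiles were common: 100 genes were nearer to Arid4b than Ogt was, and 36 were nearer to Suds3 than Ing2 was. To Brms1l 136 genes were nearer than Ing2 was. Other genes had no close partner in the set. Ahead of the nearest member stood 1493 genes for Arid4a, 4570 for Brms1, 4422 for Kdm5a and 1154 for Morf4l1. The single nearest gene of the table was Tgfbr2 for Arid4a (0.010), Appl2 for Arid4b (0.028), Jmy for Ing2 (0.030), Gpcpd1 for Morf4l1 (0.023), Mpi for Brms1 (0.013), Ephb4 for Brms1l (0.019), Ppp1r9b for Suds3 (0.032), Vcpip1 for Kdm5a (0.026) and Mllt10 for Ogt (0.0092). With 4 libraries such likeness describes these libraries only.

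The other genes of the Sin3 complex, Sin3b included, lay on both sides of 0. Of 14 listed, 12 were measured, and 6 were above 0 and 6 below, with a median log2 fold change of 0.00. After upper quartile scaling, which moves the median of all genes to -0.08, 3 were above 0 and 9 below. None passed (limma, Benjamini-Hochberg adjusted p of at least 0.548), and Sin3b alone was under an unadjusted p of 0.05, while its adjusted p in the authors' deposited table was 0.00249. Sin3a, the other scaffold, was at 2298 and 2378 in Sin3B KO libraries, against 2148 and 2731 in WT libraries, and overlapped. Sap18, a subunit that links the complex to RNA processing factors, was at 1118 and 945 in Sin3B KO libraries, against 909 and 730 in WT libraries (log2 fold change 0.34, or 0.18 without WT 2 and 0.21 without Sin3B KO 1). The histone-binding subunit Rbbp4 was at 6136 and 5002 in Sin3B KO libraries, against 5183 and 3930 in WT libraries (0.30, or 0.10 without WT 2, 0.15 without Sin3B KO 1 and 0.50 without WT 1). A difference between these genes and the accessory subunits was not tested.

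Of 8 paralogs of the accessory subunits, all measured, 7 had a log2 fold change above 0 (median 0.10), but 3 were above 0 and 5 below after upper quartile scaling. The median was -0.02 without WT 2, 0.01 without Sin3B KO 2, 0.21 without Sin3B KO 1 and 0.18 without WT 1. Morf4l2, the close relative of Morf4l1, was at 2404 and 2135 in Sin3B KO libraries, against 1710 and 1538 in WT libraries. The lower KO value was 24.8% above the higher WT value, the only such gene of the 8 (24.7% of all genes do not overlap in that direction), and the log2 fold change was 0.48 (SE 0.20, limma 95% interval 0.04 to 0.93). Its unadjusted limma p was 0.0374, in a direction where 4.97% of all genes were under 0.05, and after Benjamini-Hochberg adjustment over all genes the limma p was 0.548, which did not pass. Kdm5b, a relative of Kdm5a with the same activity, was at 1194 and 1446 in Sin3B KO libraries, against 1343 and 1839 in WT libraries (log2 fold change -0.26), and overlapped. It was -0.03 without WT 2, -0.12 without Sin3B KO 1, -0.48 without WT 1 and -0.40 without Sin3B KO 2.

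Partners that share a subunit or a substrate with these genes gave no call either. In the TIP60 acetyltransferase complex, which also contains Morf4l1, 14 of 15 listed genes were measured, 7 above 0 and 7 below, or 5 above and 9 below after upper quartile scaling. Epc1, a scaffold subunit, was at 594 and 614 in Sin3B KO libraries, against 894 and 804 in WT libraries, and Kat5, the acetyltransferase itself, was at 1335 and 1353 in Sin3B KO libraries, against 1014 and 1078 in WT libraries. Both were named for the smallest p of the list, with log2 fold changes of -0.49 and 0.36. Neither overlapped between genotypes, which held for 6 of the 14 genes and for 44.1% of all genes. Of 7 genes around Ogt, namely enzymes that make its sugar donor, the enzyme that removes the sugar again (Mgea5) and the Ogt partner and substrate Hcfc1, 6 were above 0 (median 0.21), or 4 after upper quartile scaling. That median was 0.10 without WT 2. Among them Gfpt1, the entry enzyme of the hexosamine pathway, was at 762 and 1097 in Sin3B KO libraries, against 627 and 744 in WT libraries, with a log2 fold change of 0.42 that was 0.16 without Sin3B KO 2 and 0.68 without Sin3B KO 1. Uap1, which makes the sugar donor, was at 803 and 943 in Sin3B KO libraries, against 641 and 713 in WT libraries.

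The complexes that methylate lysine 4 of histone H3, together with the demethylase Kdm1a, act on the residue that Kdm5a demethylates. Of their 13 genes, 13 were measured, and 10 had a log2 fold change below 0 and 3 above, with a median of -0.18. The median was -0.07 without Sin3B KO 2, -0.10 without WT 2 and -0.03 over the genes with a mean of at least 500, and -0.29 after upper quartile scaling. Mll3, a methyltransferase, was at 2173 and 1944 in Sin3B KO libraries, against 3440 and 2410.4 in WT libraries (log2 fold change -0.49, or -0.23 without WT 1 and -0.74 without WT 2). Cxxc1, which binds unmethylated CpG, was at 1204 and 1059 in Sin3B KO libraries, against 1304 and 1531 in WT libraries (-0.32, or -0.21 without WT 2). Both, named for the smallest p of the list, were lower in each KO library than in either WT library. This held for 5 of the 13 genes, against 19.4% of all genes, and the reverse for 3 of the 13 (Mll2, Rbbp5 and Dpy30), against 24.7%. Of the list 0 of the 13 passed (limma, Benjamini-Hochberg adjusted p of at least 0.548) or were under an unadjusted p of 0.05.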

How the data were processed

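Per the submitters' processing notes, Bowtie, DESeq and the mouse build mm9 were used. Versions, read counting and gene annotation are not stated there. In the table that the authors deposited, 552 of 9796 genes (5.63%) have no library values and were left out. Its lowest mean is 120.2, so weaker genes were not analysed here. Within each library, 100% of the deposited signal values were whole multiples of 1 step within 0.01 of a step, as reads divided by a size factor would be. That 1 step is 1 read is inferred, since the table lists no low values. Per the file headers, the authors' own comparison holds a log2 fold change, its standard error, a test score, and p-values with and without adjustment. How its log2 fold changes were estimated is not known here, and their size is not comparable with that of the main test. For Alas2 it gives -0.017 (SE 0.114), against 0.83 (SE 1.88) in the main test.

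As the values are normalised, no count model was run. Tests used limma 3.58.1 in R 4.3.3, with a trended prior, on log2(value + 1), two-sided, over all 9244 genes that reached 1 in at least 2 libraries, and passing meant a Benjamini-Hochberg adjusted p under 0.05. The distance from the centre to the edge of a 95% confidence interval was 0.60 (log2) in the median. Members, lists, ratios and naming rules (2 genes per list by smallest p, and the nearest profile) were chosen with earlier results of these data known. Exon and transcript lengths came from GENCODE M21 (GRCm38), another build than the authors', through Ensembl identifiers (9000 genes matched; longest principal transcript). Copies were sought with blastn 2.17.0. The alternatives tried are given with their effect in the closing section.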

Additional observations from a re-analysis of the deposited data

How the results depend on the processing

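The settings varied were the scaling (trimmed mean of M values, upper quartile), the pseudocount (0.1, 5), the filter (none, a mean of at least 500), a replicate block and the omission of each library. Of the 9 genes 0 passed in any of them (smallest limma Benjamini-Hochberg adjusted p = 0.192), and 7 kept their direction in all. The exceptions were Morf4l1, between -0.72 and 0.13 with 1 library left out (0.13 without WT replicate 1), and Suds3, between -0.92 and 0.0024 (0.0024 without WT replicate 2). The median of the 9 log2 fold changes lay between -0.40 and -0.14 with 1 library left out and between -0.45 and -0.23 otherwise. Upper quartile scaling moved the median of all genes from 0.03 to -0.08, and that of the 9 genes to -0.45. The count of genes passing, 0 of 9244 with 824 at an unadjusted p under 0.05 (limma), was 27 with the replicate block and between 0 and 1 with 1 library left out (1 without Sin3B KO replicate 2 and 1 without WT replicate 2). With the replicate block Sin3b passed (adjusted p = 0.0282, limma), and of the 9 genes Kdm5a had the smallest p (0.0317, adjusted 0.255). Same-numbered libraries deviated together (correlation over genes 0.465 between the KO and WT differences of number 1 from number 2), but the labels do not say what the number marks. The log2 ratio of Arid4b to Arid4a differed by between -0.31 and 0.27, with 0.27 without Sin3B KO replicate 1 and 0.06 without WT replicate 1. That of Suds3 to Brms1l lay between -0.35 and 0.093, with 0.093 without WT replicate 2. A trimmed mean of M values was computed directly, without weights. The quasi-likelihood count test was not run, since the values are normalised. With a library left out, 1 genotype has 1 library, which is assumed to vary like the other genotype. Genes with a mean under 500, Ing2, Brms1l, Suds3 and Morf4l1 among them, have no value under that filter.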
